A study of Mus musculus with 4 samples.

Results

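The wide intronic H3K9me3 regions of mouse embryonic stem (ES) cells are described here. H3K9me3, the trimethylated lysine 9 of histone H3, was profiled by chromatin immunoprecipitation with sequencing, and the study's list gave the enriched regions. Members were chosen by their listed width and position, as the regions of 1200 to 5000 bp that touched a protein-coding gene, overlapped no exon of any gene and lay more than 1 kb from every annotated transcript start. Coordinates are those of mm9, an assembly of strain C57BL/6J, and gene models those of GENCODE vM1. Autosomes other than chromosome 8 were used, which left 18 chromosomes. There were 3378 members among 28976 H3K9me3 regions on these chromosomes (11.7%), 32502 H3K9me3 regions in all and 64095 regions of both marks.

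The study compared WT ES cells of strain 129S1/SvImJ, which were unmodified, with G34R cells. The latter carried a targeted glycine to arginine substitution at residue 34 of H3.3 in 1 copy of H3f3a, with the other H3f3a allele and H3f3b wild type. Both were at fewer than 20 passages and were grown with serum and leukemia inhibitory factor. Each of the 4 libraries (H3K9me3 and H3K36me3 in WT and in G34R cells) was the only one of its group, and 1 list per mark pooled both cell types. The lists hold positions without read values. No member could therefore be assigned to WT or G34R cells, no test over samples was possible, and the depth behind a region is unknown. Intervals in brackets are 95% Wilson intervals for shares and exact Poisson intervals for densities. They cover counting error only, and are too narrow where neighbouring members share sequence.

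H3K9me3 is a mark of silenced chromatin that is bound by HP1 proteins. In ES cells it is known for covering endogenous retroviruses, which KRAB zinc finger proteins recognise and for which TRIM28 recruits the methyltransferase SETDB1. Such elements, when complete, are bounded by a long terminal repeat at each end, so that the same sequence occurs at both ends in the same direction. H3K36me3, in contrast, is laid down across the bodies of transcribed genes. As no repeat annotation was used, repeated sequence is described below from exact copies in the assembly, and no element is named from it.

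The sequences that recurred most among the members are given first. A member was joined to a group when it shared at least 100 words of 31 bases, simple repeats left out, with any 1 member of it. Members of a group can thus be linked through others without sharing sequence themselves. In all, 419 members (12.4%) fell in 84 such groups. The share depended on this definition and was 8.02% with words of 41 bases and 4.94% with 200 shared words. The largest group held 159 members in 131 host genes on 18 chromosomes. The word held by most of its members is shown, followed by the word held by most of the members that lacked it. The most common words of the next groups by size, of 17 and 8 members, complete the set. Capitals mark AATAAA, the hexamer that signals polyadenylation.
Largest group, word 1 (example in Tsga10, chr1:37830777-37830807, + strand): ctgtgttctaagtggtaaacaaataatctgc
Largest group, word 2 (example in Cflar, chr1:58806411-58806441, - strand): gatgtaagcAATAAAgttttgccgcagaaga
Group of 17 (example in Chi3l3, chr3:105990424-105990454, + strand): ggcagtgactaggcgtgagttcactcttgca
Group of 8 (example in Boll, chr1:55354645-55354675, - strand): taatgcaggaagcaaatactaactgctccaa

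The next pair of sequences shows how such a repeat lay beside members. In intron 2 of Gpc6, which encodes a heparan sulfate proteoglycan of the glypican family, 2 copies of a sequence of 356 bases occurred in the same direction 6760 bp apart. A member of 3000 bp (chr14:117681001-117684000) lay to the left of the left copy, which starts at 117684976, and a member of 2600 bp (chr14:117691601-117694200) held the right copy. The leading 120 bases of each copy are given, on the + strand of chromosome 14, with the only differing base in capitals (C44T, counted from 1 at the left end of the left copy).
Left copy (chr14:117684976-117685095): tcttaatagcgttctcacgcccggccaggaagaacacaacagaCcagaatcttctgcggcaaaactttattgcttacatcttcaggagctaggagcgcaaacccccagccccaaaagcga
Right copy (chr14:117691736-117691855): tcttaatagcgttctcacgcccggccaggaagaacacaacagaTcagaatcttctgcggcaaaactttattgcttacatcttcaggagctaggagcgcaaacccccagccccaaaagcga
Bases 50 to 80 of both copies are the reverse complement of word 2, so that the hexamer was read on the strand opposite to Gpc6.

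The regions themselves were mostly single-copy, whereas the sequence beside them was rich in repeats. The central 50 bases had more than 1 exact copy in 7.31% of members (6.48 to 8.24), close to the 7.18% of all intronic bins of 200 bp, and more than 5 copies in 2.25% (1.80 to 2.81) compared with 5.13% of intronic bins. In 1566 members (46.4%) every word of 50 bases tested was unique, and in 151 (4.47%) at least 50% of them were not. Reads with more than 5 alignments were discarded by the authors, and the part of this step in the low share at the centre was not tested. At 3 kb to the right of the centre, 12.8% of words (11.7 to 14) had more than 5 copies. This value was 5.05% around introns at large, which were represented by 18834 intronic bins at even spacing. It was 7.02% around the 12809 narrow intronic H3K9me3 regions (600 to 1000 bp), 4.96% around 3873 wide H3K9me3 regions at exons or starts, and 3.85% around 1795 wide intronic H3K36me3 regions. The share around members fell to 9% at 7 kb and 6.55% at 10 kb. At the centre, more than 1 copy was found in 5.07% of narrow regions, 4.44% of wide regions at exons or starts and 2.62% of wide intronic H3K36me3 regions. More than 5 copies were found in 1.73%, 0.8% and 0.39%, respectively. A low share at the centre was therefore not particular to the members, whose shares were the highest of these sets of regions.

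**Figure D1:**
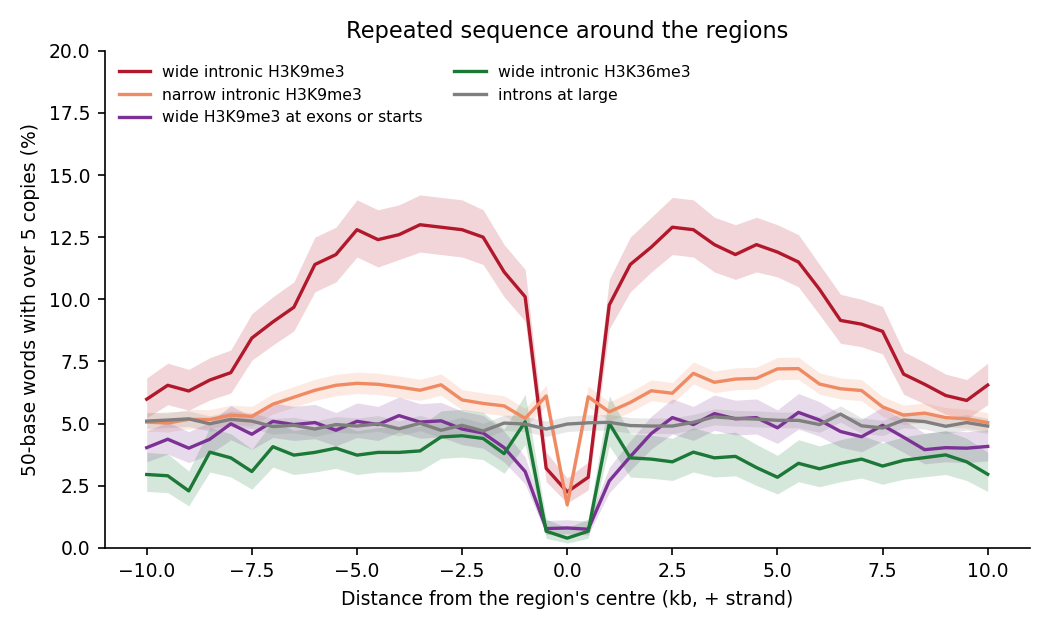
Share of 50-base words with over 5 exact copies in the assembly (y axis, %) against the distance from the region's centre (x axis, kb), for 5 sets of positions. Lines give the share and bands the 95% Wilson interval. Every set but introns at large is low at the centre (2.25% for wide intronic H3K9me3 regions). The wide intronic H3K9me3 regions stand above the other sets from 1 to 7 kb on both sides.

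A member was counted as having a repeated neighbourhood when at least 500 bp of words within 5 kb of its centre had more than 5 copies. This held for 1421 members (42.1%, 40.4 to 43.7), compared with 19.5% of the intronic positions, 24.0% of narrow regions, 17.1% of wide regions at exons or starts and 14.4% of wide intronic H3K36me3 regions. The share was above that of introns at large on 18 of 18 chromosomes, with a range of 27.4% to 51.3% for members and 12.5% to 25.3% for introns. Members lay a median of 7122 bp from an exon of their host gene and introns at large 4822 bp. The host gene is the longest protein-coding gene that overlaps a position, and exons of other genes, which can lie closer, were not counted in this distance. The rule fixes the difference in part, since bins of 200 bp can lie in short introns. Repeats were more frequent far from exons of the host gene, so that the shares were also taken by this distance. Within 2 kb of such an exon, 28.9% of members (25.9 to 32.1) and 13.4% of intronic positions had a repeated neighbourhood. At 10 kb or more from one these were 48.7% (46.1 to 51.4) and 24.3%.

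Direct repeats, defined as 2 same-strand copies of at least 200 bases at a spacing of 1 to 9 kb whose span came within 3 kb of the centre, were found at 651 members (19.3%, 18 to 20.6). A search window of 6 kb gave 11.2%, compared with 2.75% of intronic positions and 5.07% of narrow regions. In the full window of 10 kb on each side, the share was 3.87% for the intronic positions, 7.60% for narrow regions, 7.75% for wide regions at exons or starts and 3.84% for wide intronic H3K36me3 regions. It was above that of introns on 18 of 18 chromosomes (11.3% to 26.5%, introns 2.22% to 5.59%). The 651 members shared 468 distinct pairs, and 162 pairs had at least 2 members. Counting each pair once gave 14.6% for members and 5.68% for narrow regions. Of the 651 members, 429 extended across an outer end of the span, 71 lay wholly inside and 151 lay outside, at a median of 737 bp from it. A wide region held within 3 kb of a span will often cross its end, and this split was not made for the other sets, so that nothing is read from it.

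The copies were most often 6.5 to 7.0 kb apart. This class held 98 of the 468 pairs (20.9%), compared with 72 of 729 (9.88%) among introns at large, and 151 members. It was also frequent in the other sets, with 109 of 713 pairs (15.3%) at narrow intronic H3K9me3 regions and 13 of 55 (23.6%) at wide intronic H3K36me3 regions, so that the spacing was not particular to the members. The median spacing within it was 6781 bp (quartiles 6740 and 6834) and the median repeat length 351 bases (337 and 372). No other class of 500 bp held more than 10.0% of the members' pairs. The pairs of introns at large were most frequent at 1.0 to 1.5 kb (12.6%) and 5.5 to 6.0 kb (13.2%), and each of these classes held 5.77% of the members' pairs. The 5 longest repeats were at members in Bmper, Gm10251, Luzp2, St3gal4 and Dnahc7b. They ranged from 3409 bases in Dnahc7b, a gene for an axonemal dynein heavy chain, to 4282 bases in Bmper, an extracellular regulator of BMP signalling. The Bmper member was unique sequence of 1200 bp, but 92.1% of words 2.5 to 7.5 kb away from its centre had more than 5 copies. The other members differed. Words with more than 1 copy made up 100% of those in Gm10251 and St3gal4, 10.4% in Luzp2 and 10% in Dnahc7b.

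**Figure D2:**
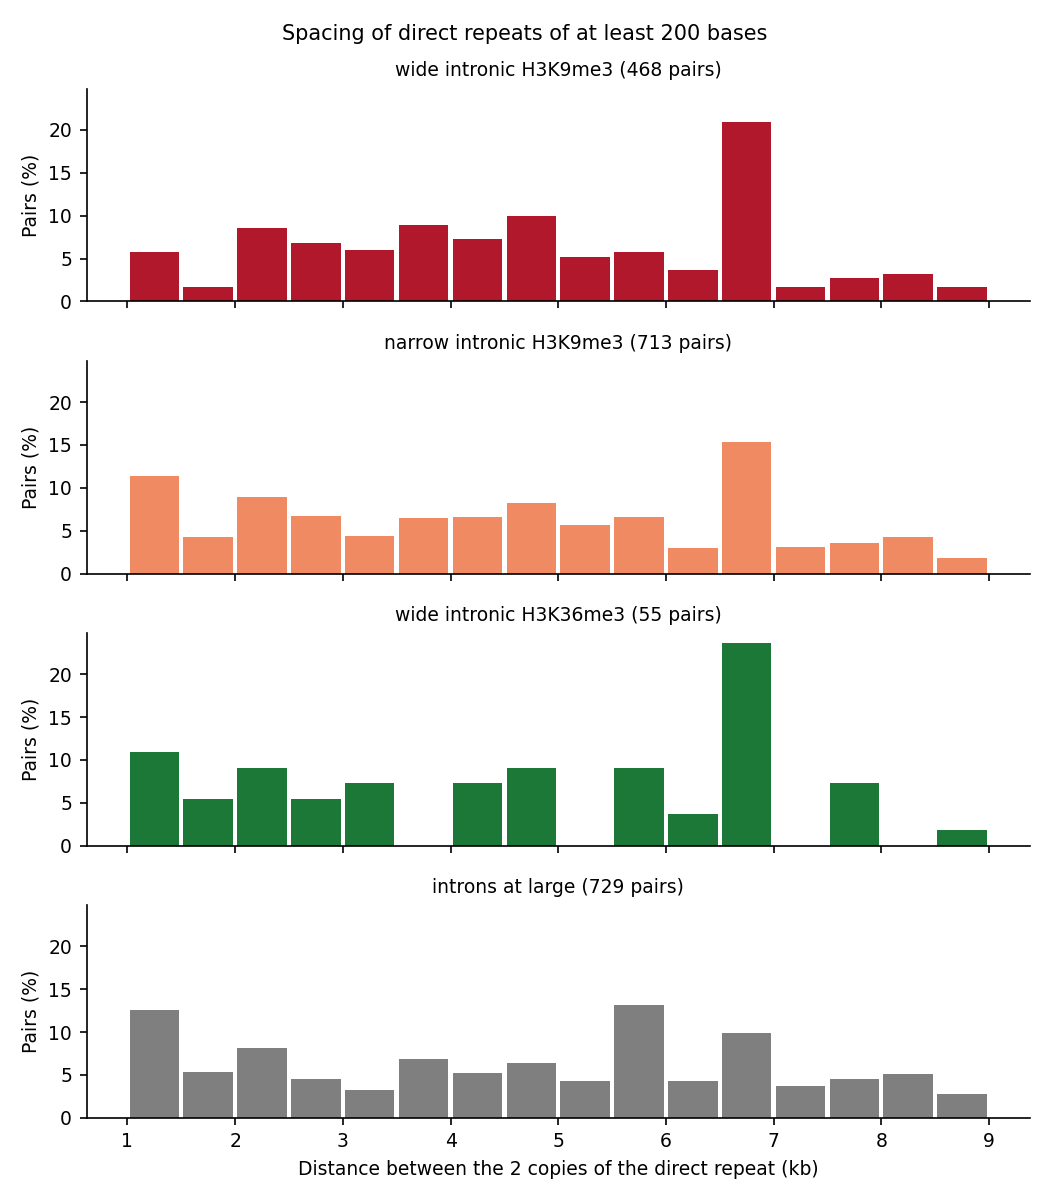
Distance between the 2 copies of direct repeats of at least 200 bases (x axis, kb, classes of 0.5 kb) as a share of distinct pairs (y axis, %), for wide and narrow intronic H3K9me3 regions, wide intronic H3K36me3 regions and introns at large (panels from top to bottom, with 468, 713, 55 and 729 pairs). The class of 6.5 to 7.0 kb holds 20.9%, 15.3%, 23.6% and 9.88% of the pairs, respectively.

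The gaps between neighbouring members held repeated sequence as well. The median gap was 153600 bp (137000 to 177200), but 719 of 3360 gaps (21.4%) were at most 8 kb. With neighbours within 2 kb joined the median gap was 243200 bp. For the 324 pairs of neighbours up to 1 kb apart, 19.3% of the words in the gap had more than 5 copies. The share was 27% at gaps of up to 2.5 kb, 38.8% at up to 4 kb, 34.4% at up to 6 kb and 52.4% for the 101 pairs 6 to 8 kb apart, so that it did not rise at each step. Of all intronic bins, 5.13% had more than 5 copies at their centre. In 53 of the 101 pairs at least 50% of the gap was of this kind, a count with no counterpart for introns here. Reads with more than 5 alignments had been discarded, which can leave highly repeated words in gaps rather than in listed regions. The part of this step in the shares of the gaps was not tested. The next H3K9me3 region of any kind was a median of 5300 bp away.

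In the largest sharing group, 136 of 159 members had a direct repeat and 149 a repeated neighbourhood, while 36 had a pair at 6.5 to 7.0 kb. The group was defined by words that several members held, so that a frequent repeated neighbourhood follows in part from the definition. Word 1 was held by 97 members and lay on the strand opposite to the host gene in 81 of them (83.5%, 74.9 to 89.6). Word 2 lay opposite to the gene in 57 of 72 members (79.2%, 68.4 to 86.9). The same orientation prevailed among the intronic copies outside members. Of 673 such copies of word 1, 512 (76.1%, 72.7 to 79.1) were opposite to the gene, as were 254 of 323 copies of word 2 (78.6%, 73.8 to 82.8). The intervals of members and other copies overlapped for both words. The word of the group of 17 had the other orientation, with 7 of 8 members on the strand of the gene. Outside members, 7 of its 28 intronic copies (25%, 12.7 to 43.4) were opposite to the gene. The word of the group of 8 was on the strand of the gene in 7 of 7 members, and 0 of its 4 intronic copies outside members were opposite.

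Copies of these words outside the members also lay close to H3K9me3. Of 673 intronic copies of word 1 outside members, 449 (66.7%, 63.1 to 70.2) were within 5 kb of an H3K9me3 region that was not a member, compared with 16.8% of intronic bins outside members. For word 2 this was 225 of 323 (69.7%, 64.4 to 74.4). With members counted, 19.2% of intronic bins were within 5 kb of any H3K9me3 region, and 4.2% within 5 kb of a member. The words were chosen because members held them. Of all 816 intronic copies of word 1, those inside members included, 382 (46.8%) were within 5 kb of a member. The next H3K9me3 region was a median of 5300 bp from a member. A share above that of the bins is therefore given in part by the choice of words, and nothing is read from its size.

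The members with a repeated neighbourhood were set beside the other 1957. Direct repeats were found at 43.9% of the former and 1.38% of the latter, 2 measures that share the same sequence. Median G+C was 43.6% (quartiles 41 and 46.2) compared with 46.2% (43.2 and 49.0). The median distance to an exon of the host gene was 9373 compared with 5521 bp. Both kinds were in the longest intron of their gene in 53.4% of cases. Their host genes overlapped in part. Of these, 829 genes held members of the former kind, 1223 of the latter and 251 of both.

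Members overlapped H3K36me3 regions in 463 cases (13.7%, 12.6 to 14.9), compared with 8.38% of all H3K9me3 regions on these chromosomes. The share was 4.10% for narrow regions and 15.0% for wide regions at exons or starts. As wide regions have more bases to overlap, the covered length was compared too, and 9% of the members' bases carried both marks, compared with 12.2% for wide regions at exons or starts, 3.48% for narrow regions and 3.75% of intronic bins. Since both lists pool WT and G34R cells, an overlap does not show that a cell or a cell type carried both marks. The member with the largest overlap was 4400 bp in intron 2 of Esrrb (chr12:87798001-87802400), wholly inside H3K36me3. Esrrb encodes an orphan nuclear receptor of the pluripotency network. Its members numbered 4, of which the 3 in intron 2 were wholly covered and that of 2800 bp in intron 1 was not touched. Members wholly covered numbered 68. Among the next largest were 3600 bp in Gm13138, 3000 bp in Gm13242 and 2600 bp in B4galt6. The Gm13138 member was wholly multi-copy sequence and Gm13242 had 40% of words in several copies, whereas the member in B4galt6, a galactosyltransferase gene, had 0%.

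**Figure D3:**
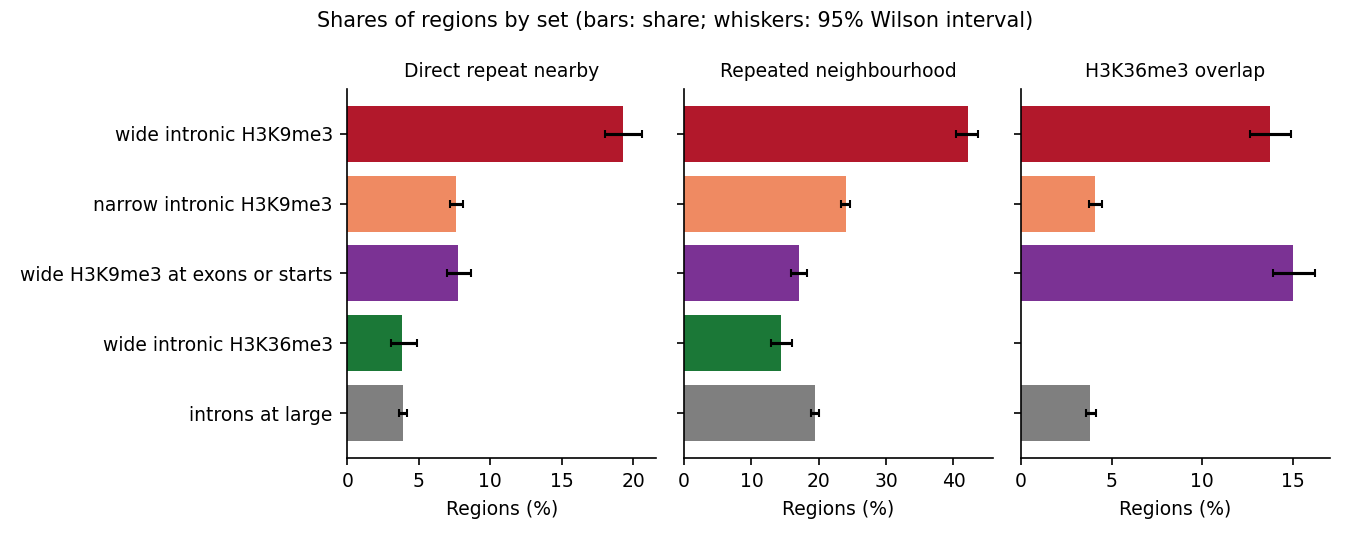
Share of regions (x axes, %) with a direct repeat nearby, a repeated neighbourhood and an overlap with H3K36me3, for each set of positions (bars, with 95% Wilson intervals as whiskers). Wide intronic H3K9me3 regions lead in the left and middle panels (19.3% and 42.1%), and are near the wide regions at exons or starts in the right panel (13.7% and 15.0%), where wide intronic H3K36me3 regions have no bar because their overlap is given by definition.

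H3K36me3 was also counted over the host genes. A region was present in 33.0% of the 1801 host genes (30.9 to 35.2), compared with 41.3% of 14463 genes without a member (40.5 to 42.1). The order depended on gene length. It held for genes under 50 kb (34.8% and 41.8%) and for those of 50 to 150 kb (38.1% and 44.5%), but for genes over 150 kb it was 26.6% (23.4 to 30.1) for host genes and 20.1% (17.1 to 23.4) for the rest.

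Width went along with these measures among the members. The share with a direct repeat was 10.6% (8.76 to 12.7) at 1200 bp and 36.9% (31.7 to 42.4) at 3200 to 5000 bp. A repeated neighbourhood was found for 34.3% (31.3 to 37.4) and 54.0% (48.5 to 59.5), respectively, and an overlap with H3K36me3 for 8.75% (7.11 to 10.7) and 36.6% (31.4 to 42.1). The overlap counted here is of any size, and the length covered by H3K36me3 was not split by width.

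**Figure D4:**
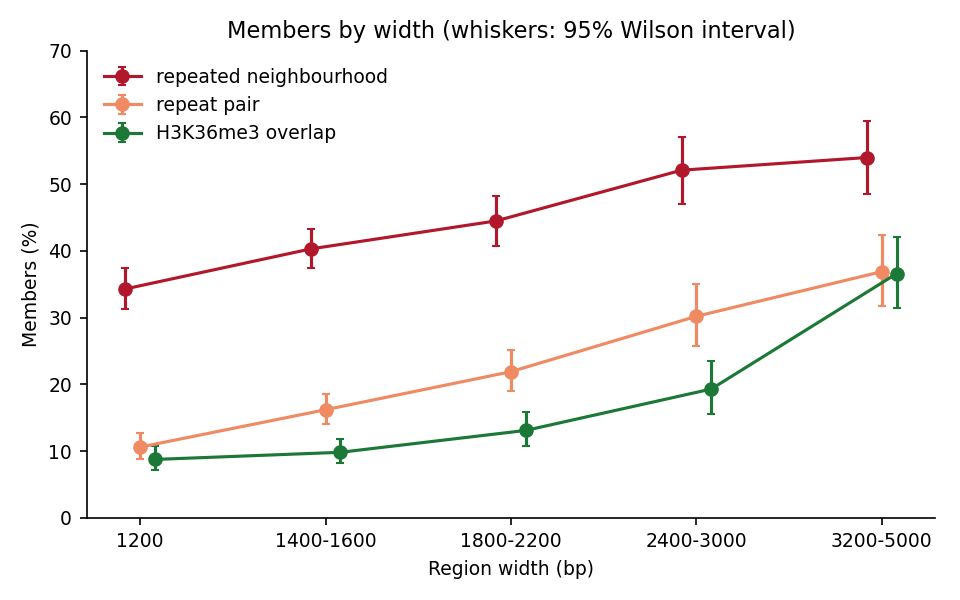
Share of members (y axis, %) with a repeated neighbourhood, a direct repeat (repeat pair) or an H3K36me3 overlap in 5 classes of region width (x axis, bp), with 95% Wilson intervals as whiskers. The 3 shares are lowest at 1200 bp (34.3%, 10.6% and 8.75%) and highest at 3200 to 5000 bp (54.0%, 36.9% and 36.6%).

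The width itself was fixed by the rule and is given as a description. The median was 1600 bp (quartiles 1200 and 2200) and the members covered 6.23 Mb. At the limits, 937 members were 1200 bp wide and 9 were 5000 bp. Just outside them, 1634 otherwise qualifying regions were 1000 bp wide and 67 exceeded 5000 bp, the widest being 18600 bp. A further 148 lay within 1 kb of a transcript start, whereas the nearest member was 1002 bp away. Of the 9 members of 5000 bp, 4 overlapped H3K36me3. The 5 named here are only those that came to the top of the tie in sort order, in Pcmtd1, D10Bwg1379e, Col23a1, Rap1gap2 and Vps53. Pcmtd1 (chr1:7120401-7125400) had 84.0% of its length in H3K36me3. The Vps53 member, in a gene for a subunit of a retrograde transport complex, had 40%, that in Col23a1 had 20.0% and that in Rap1gap2 had 16%, and D10Bwg1379e had none.

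Base composition lay between that of introns and of the wide regions at exons. The median G+C of members was 45.1% (44.9 to 45.3), and 43.9% in their flanks, compared with 42.5% for intronic bins, 46.2% for narrow regions, 45.9% for wide intronic H3K36me3 regions and 53.4% for wide regions at exons or starts. The median ratio of observed to expected CpG was 0.202 for members and 0.406 for wide regions at exons or starts. It was 0.187 for narrow regions, 0.189 for wide intronic H3K36me3 regions and 0.152 for intronic bins, so that a low ratio was not particular to the members. Intronic bins are 200 bp, which makes their G+C more variable than that of wider regions. The central 200 bases of 4 members in different genes are given next, on the + strand, with CpG in capitals. None of the 4 had a repeated neighbourhood or a direct repeat, so that members with either are not shown here.
Gpc6 (chr14:118346701-118346900, member of 3200 bp, 43.2% G+C): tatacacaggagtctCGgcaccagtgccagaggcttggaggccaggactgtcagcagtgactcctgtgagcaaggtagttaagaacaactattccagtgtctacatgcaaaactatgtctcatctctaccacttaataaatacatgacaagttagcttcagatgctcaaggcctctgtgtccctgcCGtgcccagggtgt
Kcnq1 (chr7:150481701-150481900, member of 3600 bp, 50.1% G+C): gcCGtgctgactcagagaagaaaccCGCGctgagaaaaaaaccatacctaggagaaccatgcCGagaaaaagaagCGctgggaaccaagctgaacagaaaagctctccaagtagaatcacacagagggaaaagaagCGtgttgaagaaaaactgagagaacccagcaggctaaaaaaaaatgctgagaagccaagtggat
Spock1 (chr13:57547501-57547700, member of 2400 bp, 46.9% G+C): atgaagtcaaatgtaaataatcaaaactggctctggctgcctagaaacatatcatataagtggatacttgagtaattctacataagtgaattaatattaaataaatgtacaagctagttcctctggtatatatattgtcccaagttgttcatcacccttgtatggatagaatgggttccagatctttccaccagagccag
Esrrb (chr12:87800101-87800300, member of 4400 bp, 48.2% G+C): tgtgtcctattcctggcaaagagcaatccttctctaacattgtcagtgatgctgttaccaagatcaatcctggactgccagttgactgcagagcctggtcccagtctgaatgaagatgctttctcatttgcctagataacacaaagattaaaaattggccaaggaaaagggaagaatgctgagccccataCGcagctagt
The Kcnq1 stretch held 6 CpG, the Gpc6 stretch 2, the Esrrb stretch 1 and the Spock1 stretch 0.

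Long open reading frames were uncommon. A stretch of at least 200 codons without a stop lay in 224 members (6.63%, 5.84 to 7.52), compared with 1.05% of narrow regions, which have less room for it, 2.90% of wide intronic H3K36me3 regions and 43.6% of wide regions at exons or starts. It was opposite to the host gene in 130 of the 224 (58.0%, 51.5 to 64.3). At a minimum of 100 codons this was 50.4% and at 300 codons 28 of 58 (48.3%, 35.9 to 60.8), so that the excess of opposite frames was found at 1 threshold only. The longest frame, of 908 codons, was in BB287469 on chromosome 12, in a member with 59.5% of words in several copies. The next 4 were in the protocadherin clusters of chromosome 18. They had 798 to 830 codons in 3 members of Pcdhgc5 and 657 codons in a member of Pcdha11, and all were on the strand of the gene. In these clusters each variable exon is known to encode a whole extracellular part, and the members there overlapped no exon of the annotation used. Whether they are exons that this annotation lacks was not tested, and they are counted as intronic in the cadherin density below.

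The members were spread over 1801 of 16264 protein-coding genes with intronic bins (11.1%). Of these genes 1101 held 1 member and 113 held 5 or more, with 799 members among them. The density was 4.49 members per Mb of intron (4.34 to 4.64) over 753 Mb. It ranged from 3.13 on chromosome 2 (2.71 to 3.59) to 6.41 on chromosome 17 (5.54 to 7.36). Host genes had a median length of 107189 bp. The rule needs a stretch of at least 1200 bp without an exon, which favours long genes.

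Within their genes, members were found before the midpoint in 55.8% of cases (54.2 to 57.5), compared with 51.4% of the intronic bins of the same genes. The share of members was highest between 20% and 30% of the way along the gene (12.5%, 11.4 to 13.7) and lowest beyond 90% (5.60%, 4.87 to 6.42). The longest intron held 53.4% (51.7 to 55.1) compared with 44.8% of the bins of these genes, and the first intron 25.5% (24.1 to 27) compared with 22.5%. Bins of 200 bp can lie in short introns from which the rule bars regions of at least 1200 bp, so that nothing is read from these excesses or from the one before the midpoint. Narrow intronic H3K9me3 regions were in the longest intron of their gene in 45.5% of cases and in the first in 23.7%.

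Kcnq1 held the most members, at 22 (70.7 per Mb of intron, in a gene of 320 kb). It encodes a voltage-gated potassium channel and lies in an imprinted cluster. In intron 12, 9 members lay between chr7:150480001 and chr7:150534400, with G+C of 47.6% to 52.2% and every tested word unique. The ratio of observed to expected CpG was 0.502 in the leftmost of them and 0.106 to 0.219 in the rest. In intron 11, 6 members had G+C of 32.9% to 45.6%, and 3 of them shared a direct repeat of 399 bases at a spacing of 4161 bp. None of the 22 overlapped H3K36me3. The long antisense RNA Kcnq1ot1 is known to be transcribed from within this gene, but no gene of that name is in the annotation used. Its start and its transcript were therefore treated as intron, and whether a member lies at that start was not tested.

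Gpc6 (17 members) and Hs6st3 (13 members), both on chromosome 14 and both in heparan sulfate biology, had more members beside repeats. Of the Gpc6 members 10 had a repeated neighbourhood and 6 a direct repeat. For Hs6st3, a heparan sulfate sulfotransferase gene whose members were all in its only intron, these were 8 and 5. A repeat of 413 bases at a spacing of 3344 bp had 3 members of Hs6st3 around it. The 13 members of Spock1, which encodes the secreted proteoglycan testican, included none with a repeated neighbourhood or a direct repeat, and their G+C was 45.7% to 50.6%. Of the 12 members of Cacna1c, the pore subunit of an L-type calcium channel, 1 had a repeated neighbourhood and 8 were in intron 3. Fgfr2, a receptor for fibroblast growth factors, had 13 members, of which 5 had a repeated neighbourhood, but its annotated span of 3010 kb included an intron of 2860 kb, and its density was 4.87 per Mb. The 11 members of Mtus2, a gene for a microtubule-associated protein, included 5 with a repeated neighbourhood, and 5 of the 11 in Ccdc11, a gene for a ciliary protein, had one as well. Gm2792 (14 members) and C130026I21Rik (12 members) were different, as 13 and 11 of their members consisted mostly of sequence with more than 1 copy. A read from such sequence cannot be placed with certainty, and the number of separate regions in these genes is uncertain.

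**Figure D5:**
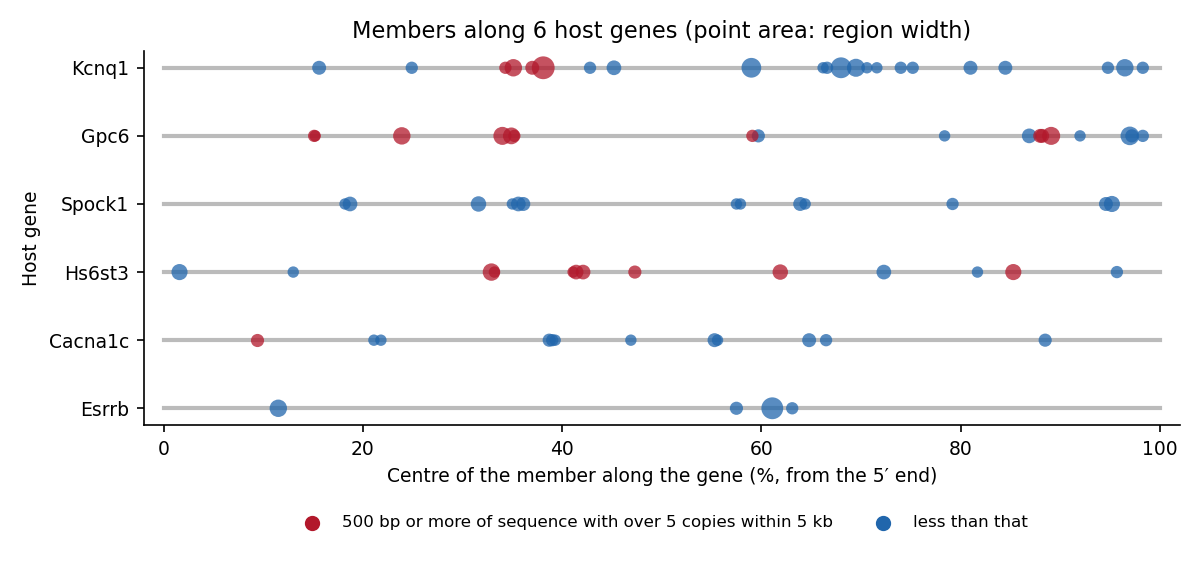
Centres of the members along 6 host genes (x axis, % of the gene from its 5′ end), with point area in proportion to region width and colour by repeated neighbourhood. Most of the 22 points of Kcnq1 and all 13 of Spock1 are of the colour without a repeated neighbourhood, whereas 10 of 17 in Gpc6 and 8 of 13 in Hs6st3 have one.

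Among genes with at least 3 members, the density was highest in Ccdc11, at 159 members per Mb of intron. Gm13247 and Terf1 had 149 per Mb, and Gm5662 and Catsper3 had 146 per Mb. Terf1 encodes a telomere-binding protein, and its 5 members all had a repeated neighbourhood, 4 of them overlapping H3K36me3. Gm13247 had 4 members, of which 3 overlapped H3K36me3. Catsper3, a gene for a sperm ion channel subunit, had 3 members without such overlap, and 4 of the 7 members of Gm5662 were mostly multi-copy.

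Gene groups were compared by the share of genes with a member, against 11.1% of all genes, and by density, against 4.49 per Mb. As long genes offer more intron, the density is the fairer measure. A member was present in 11 of 25 neuronal adhesion genes (44.0%), at 2.02 per Mb (1.35 to 2.91), with Cntn5, Nlgn1 and Cntnap2 among them. All 6 members of Cntn5, a contactin, had a repeated neighbourhood, whereas 1 of the 6 in Nlgn1, a postsynaptic neuroligin, had one. Receptor tyrosine phosphatases had 8 of 20 genes with a member at 2.54 per Mb (1.53 to 3.97), with 5 members each in Ptprm and Ptprn2. Axon guidance genes had 14 of 68 at 3.36 per Mb (2.32 to 4.69). The 9 members of the ephrin receptor gene Ephb1 included 1 with a repeated neighbourhood, and Slit3, which encodes a secreted guidance ligand, and Ntn1, which encodes netrin 1, had none among 5 and 3, whereas 2 of the 3 in the ephrin receptor gene Epha6 had one. Glutamate and GABA receptors had 16 of 44 at 3.93 per Mb (2.85 to 5.30). In this group the 9 members of Grik4, a kainate receptor subunit, included none with a repeated neighbourhood, whereas all 6 of Gabrg3, a GABA receptor subunit, had one. Cadherins had 12 of 33 at 4.44 per Mb (3 to 6.34), led by Pcdhgc5 and Pcdha11 with 6 members each.

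Ion channels had a member in 33 of 146 genes and 5.96 members per Mb (4.82 to 7.28). Of their 95 members 22 were in Kcnq1, and without this gene the density was 4.67 per Mb (3.66 to 5.87), close to that of all introns. Collagens had 13 of 40 genes and 7.26 per Mb (4.78 to 10.6). Col23a1, a transmembrane collagen gene, held 11 of the 27 members, and the density without it was 4.65 (2.66 to 7.55). The density for odorant and vomeronasal receptors was 6.85 per Mb (4.34 to 10.3), with 16 of 245 genes. Without Vmn2r60, which held 5 of their members, it was 5.48 (3.25 to 8.66). A repeated neighbourhood, found for 42.1% of all members, was found for 19 of the 23 members of this group and 17 of the 29 in neuronal adhesion genes, but for 25 of 95 in ion channels, 6 of 27 in collagens and 6 of 34 in axon guidance genes. It was found for 19 of 43 members in glutamate and GABA receptors, 11 of 30 in cadherins, 7 of 19 in receptor tyrosine phosphatases, 21 of 50 in zinc fingers, 27 of 64 in solute carriers and 3 of 10 in axonemal dyneins. Zinc fingers had 34 of 374 genes (9.09%, 6.58 to 12.4) at 5.40 per Mb (4.01 to 7.11), solute carriers 34 of 310 at 4.86 (3.74 to 6.20) and axonemal dyneins 5 of 15 at 4.71 (2.26 to 8.66). Overlap with H3K36me3, found for 13.7% of all members, varied between genes. It held for the 3 members of Zfp808 and 2 of the 4 of Zfp277, and for the 3 of Dnahc8 but none of the 6 in Dnahc6, Dnahc7b and Dnahc7c. Of the 3 in Zfp808, 2 were mostly multi-copy sequence, from which reads cannot be placed with certainty. Slc39a11, a zinc transporter gene, led the solute carriers with 11 members, of which 1 had a repeated neighbourhood.

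Of 14 genes for H3K9 methylation, its readers and erasers, 0 held a member. The 0.495 Mb of intron they offer allows a density of up to 7.45 per Mb (exact Poisson upper limit), above that of all introns, so that a shortage could not have been seen. Of 6 listed pluripotency genes with intronic bins, Esrrb held 4 members. It offers 0.146 of the group's 0.166 Mb of intron, so that a shortage in the other 5 could not have been seen either. Tcfcp2l1, which the list gives under another symbol and which was therefore not counted in the group, held a member as well. Of the 7 genes shown by the study as examples, 6 lie on the chromosomes used, and 0 of these held a member. With 11.1% of all genes holding one, 0 of 6 is near the background.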

How the data were processed

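ChIP-seq libraries of WT and G34R ES cells were processed by the authors, who aligned reads to mm9 with Bowtie (1.0.0 in the submitters' processing notes), discarded reads with more than 5 alignments, scored 200 bp bins in genes and joined enriched bins with bedtools (2.20.1). Their methods also name an exclusion of merged regions over 500 bp and of extreme read counts. The lists start at 600 bp, so that the size limit cannot have been applied as worded, and its bearing on the widths is unclear. The deposited lists hold chromosome, start and end only. They have no read values, so that depth is unknown. The authors used UCSC genes, whereas exons and starts were taken here from GENCODE vM1 on the same assembly, and sequence from its FASTA. Width, gene, exon and start limits selected the members.

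Exact copies of words of 50 bases, at steps of 50 bases, were counted on both strands of 21 chromosomes. Direct repeats were chains of shared words of 21 bases within 10 kb of the centre, and their length is the number of bases so covered. Expected CpG is the product of the C and G counts over the length. Scripts used Python 3.11.15, numpy 2.4.6, numba 0.67.0, pandas 2.3.3 and scipy 1.17.1, and the copy, repeat and sequence-sharing steps were tested on simulated data. Genes and regions were named by counts and ranks of members (most members, highest density, greatest width, largest H3K36me3 share, longest frame and repeat, and up to 4 genes per gene group); 2 genes that this rule names are not reported here. Members, gene lists and measures were chosen with earlier results of these data known. Genes shown along their length and members whose sequence is given were chosen after their values were seen. No p-value is given, since regions of 1 list cannot stand for replicates. Other widths, start distances, overlaps, word lengths and repeat lengths were tried.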

Additional observations from a re-analysis of the deposited data

How the results depend on the processing

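Of 34 alternatives, 13 left the value within its interval or, for the number of members, within 1.5 times (2441 to 5012). The share overlapping H3K36me3 was 7.84% with 50% of the region covered, 15.2% within 1 kb and 15.6% from 1400 bp. The share with a repeated centre was 4.47% for most of the region and 2.25% for more than 5 copies. Direct repeats were at 24.6% of members from 100 bases, 15.6% from 300 bases, 11.2% in a window of 6 kb and 14.6% with each pair counted once; introns at large had 7.24%, 2.84% and 2.75% under the first 3 of these. The share in a sharing group was 17.2% with words of 25 bases, 8.02% with 41 and 4.94% with 200 shared words. Frames opposite to the gene were 50.4% at 100 codons and 48.3% at 300. Median G+C of the central 200 bp was 45.5%. Density was 8.28 kb per Mb as covered length and 3.93 per Mb with neighbours within 2 kb counted once. The median gap was 243200 bp with these joined and 5300 bp to any H3K9me3 region. A repeated neighbourhood was found for 56.7% of members from 250 bp (introns 36.9%) and 33.4% from 1 kb (introns 10.9%). Fewer or more qualifying bases follow from each limit; otherwise the cause was not tested. Counting each pair once, the limits of 250 bp and 1 kb, and leaving out Gpc6 and Kcnq1 or multi-copy members were added after seeing the data. No paired analysis was possible because the lists pool WT and G34R cells and hold no sample columns.

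Limits: cells were of strain 129S1/SvImJ and the assembly of C57BL/6J. Repeats present only in the strain of the cells were not seen, and those present only in C57BL/6J were counted although the cells lack them. Exact matching misses diverged copies. Reads with many alignments had been discarded, so that H3K9me3 within highly repeated sequence could not be measured.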
